A study of Mus musculus with 4 samples.

Results

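The AP-2 transcription factor family was followed in the lining epithelium of the embryonic mouse tongue. Its 5 genes, Tfap2a to Tfap2e, were taken by gene symbol from the 24453 genes in the deposited files. Cells carrying the surface adhesion molecule EpCAM were sorted from tongues on embryonic day 16, after the back of the tongue with the circumvallate papilla had been cut away, and their RNA was sequenced. The 2 libraries labelled Ring1a/b 2KO have the genotype Ring1a-/- Ring1bfl/fl K14-Cre+: Ring1a (gene symbol Ring1) is deleted in the germline, and a conditional allele of Ring1b (Rnf2) is cut by a Cre recombinase driven by the promoter of keratin 14, so the cut is limited to keratin 14 cells and their progeny. The other 2 libraries are labelled control, and the labels do not give the Ring1a, Ring1b or Cre alleles they carry. Ring1 and Rnf2 encode the catalytic subunits of Polycomb repressive complex 1, which holds developmental genes in a silent state. The study asks what this complex does as the tongue epithelium develops.

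AP-2 proteins bind GC-rich DNA as dimers, through a basic region and a helix-span-helix domain in their carboxy-terminal part, and they can activate or repress their targets. AP-2alpha (Tfap2a) and AP-2gamma (Tfap2c) are the members best known from surface ectoderm and the basal layer of stratified epithelium, where they act with p63 in the keratinocyte programme. AP-2alpha also acts in the cranial neural crest and the closing neural tube, AP-2beta (Tfap2b) in neural crest derivatives and the kidney, AP-2delta (Tfap2d) in the midbrain and retina, and AP-2epsilon (Tfap2e) in the olfactory system.

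The libraries held 18039767 and 20545262 counts in the 2KO-labelled group and 20624055 and 16256569 counts in the control group. Whether the replicates are separate embryos is not in the labels, so the p-values rest on a spread that may be technical. Ring1 and Rnf2, the targeted genes, were not lower where the label is 2KO: Ring1 stood at 16.8 and 15.0 CPM there and at 9.02 and 8.57 CPM in control, and Rnf2 at 62.9 and 62.4 CPM under the 2KO label and at 34.0 and 51.3 CPM in control. CPM is a count scaled to the size of its library. Counts over a whole gene do not show the loss of a part, and exons of Rnf2 overlap those of Trmt1l, so the genotype is unchecked here and each direction below is that of the labels. Epcam, the gene of the sorted molecule, stood at 216 and 245 CPM in 2KO-labelled libraries and at 221 and 189 CPM in control. Without a library of unsorted cells these levels cannot show how well the sort worked. Of the 8 markers of tongue epithelium, 4 were called lower and 0 higher, where 4.92% of all genes tested were called lower. The 4 were Krt13, a suprabasal keratin gene (log2 fold change -2.75, edgeR adjusted p = 0.000491), Perp (-0.95), Krt14 (-0.72) and Krt5 (-0.45), while Trp63 was at 0.0012. The summed level of all 8 was 10898 and 11040 CPM in 2KO-labelled libraries against 17341 and 14732 CPM in control. Rn45s, the ribosomal RNA precursor, took 22.9% and 20.2% of counts in the 2KO-labelled libraries and 16.7% and 15.3% in control.

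Tfap2b rose in the 2KO-labelled libraries, while Tfap2a, Tfap2c and Tfap2e did not pass the test and Tfap2d had no count in any library. The test was edgeR's quasi-likelihood test over 15336 genes, with p-values adjusted by the Benjamini-Hochberg method and a threshold of 0.05. Of the 4 members tested, 1 was thus called higher and 0 lower, where 7.00% of all genes tested were called higher and 4.92% lower. Higher genes were 58.7% of all called genes, against 73.4% and 72.3% when limma was run on log2 FPKM with pseudocounts of 1 and 0.1. In control epithelium Tfap2d was the only member without a count, and the other members did not fall into clear on and silent groups. It held Tfap2a and Tfap2c at high levels, Tfap2e at a low level, Tfap2b at a level that differed between its libraries, and Tfap2d at 0.

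**Figure D1:**
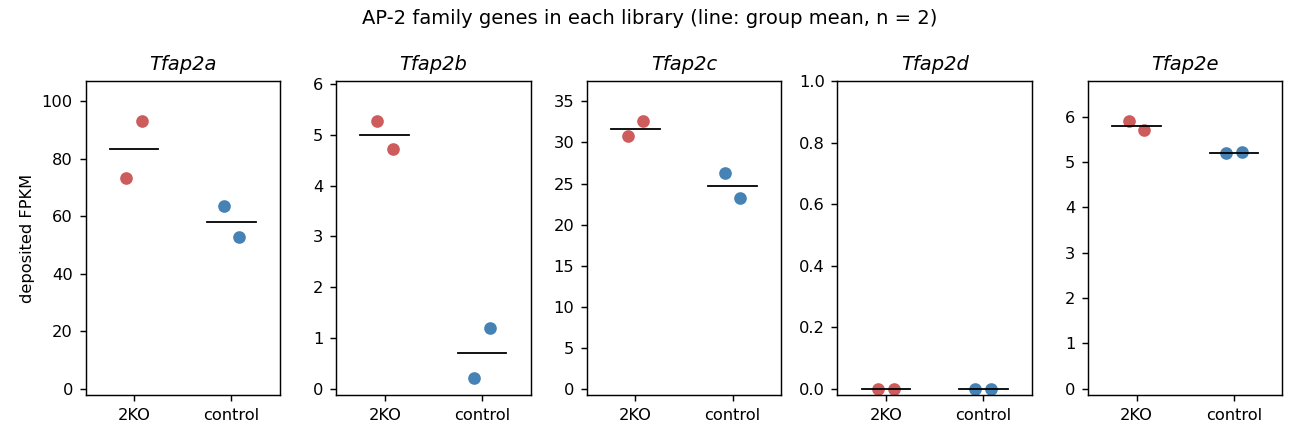
Deposited FPKM (a read count scaled to transcript length and library size) of each AP-2 gene in each library, 2KO on the left and control on the right, each panel with its own linear axis. Points are libraries and lines are group means (n = 2). Tfap2b lay at 5.27 and 4.73 FPKM in 2KO-labelled libraries and at 0.202 and 1.19 FPKM in control, and Tfap2d was listed at 0 in all 4 libraries.

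Tfap2b lies on chromosome 1 (19208914 to 19238576, plus strand, mm10) and encodes AP-2beta. It was counted 576 and 504 times in the 2KO-labelled libraries and 29 and 148 times in the control libraries. Scaled to library size this was 32.7 and 24.9 CPM in 2KO-labelled libraries and 1.42 and 8.68 CPM in control. The groups did not overlap, and the lower 2KO-labelled library was above the higher control library, as for 29.0% of all genes tested. The means were 28.8 ± 5.47 CPM in the 2KO-labelled group and 5.05 ± 5.14 CPM in control (SD, n = 2 each). The log2 fold change was 2.52 (standard error 0.593, 95% interval 1.22 to 3.83; edgeR adjusted p = 0.0202), a 5.76-fold difference with an interval of 2.33 to 14.2. Of all genes tested, 3.58% had a larger log2 fold change.

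The size of the Tfap2b difference rested on which control library it was set against. Control replicate 2 held 6.11 times the CPM of control replicate 1 (95% counting interval 4.08 to 9.44), a gap far beyond counting error, whereas 2KO-labelled replicate 2 held 0.763 times that of replicate 1 (0.676 to 0.862). Without control replicate 2 the log2 fold change was 4.34, and without control replicate 1 it was 1.75; edgeR called Tfap2b higher in both fits and in those without either 2KO-labelled library. DESeq2 gave nearly the same log2 fold change, 2.52, but did not call it (adjusted p = 0.118), and on log2(FPKM + 0.1) the call was also lost (adjusted p = 0.0713). Control replicate 2 was also high in skeletal muscle markers: 7 of them summed to 327 CPM there, against 51.0 CPM in control replicate 1, and to 64.9 and 68.8 CPM in 2KO-labelled libraries. Ttn, the most abundant of them, stood at 222 CPM in control replicate 2 and at 34.3 CPM in control replicate 1, and Myh3 at 66.8 CPM in control replicate 2 and 5.44 CPM in control replicate 1. Such sums do not show which cells gave the Tfap2b counts of any library. Of the 7 markers 1 was called higher and 0 lower, beside 7.00% and 4.92% of all genes tested. The 1 was Ryr1, a calcium channel gene at 13.8 and 13.1 CPM in the 2KO-labelled group and 6.13 and 4.64 CPM in control (edgeR adjusted p = 0.0425). The Ryr1 call was lost without either 2KO-labelled library, without control replicate 2 and on FPKM values. The part of muscle RNA in the Tfap2b level of control replicate 2 was not tested.

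**Figure D2:**
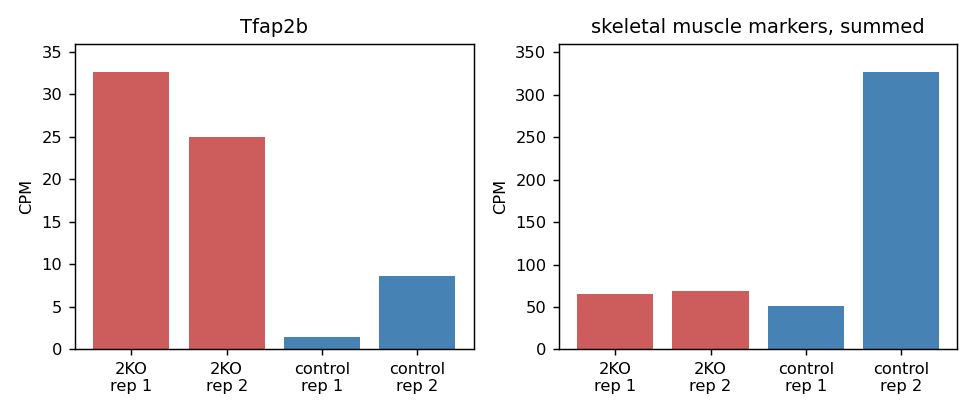
CPM in each library of Tfap2b (left) and of 7 skeletal muscle markers summed (right), with 2KO bars in red before control bars in blue and both axes linear from 0. Control replicate 2 stands at 8.68 CPM for Tfap2b and at 327 CPM for the muscle markers, above control replicate 1 in both panels. The 2KO-labelled libraries stand at 32.7 and 24.9 CPM for Tfap2b and at 64.9 and 68.8 CPM for the muscle markers.

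Cell types that derive from the neural crest can contribute AP-2 transcripts. Melanocyte and glial markers stood at low levels in every library, and those of mesenchyme, which in the tongue is largely of crest origin, stood higher. The 6 melanocyte markers summed to 13.8 and 14.2 CPM in 2KO-labelled libraries and to 10.05 and 12.3 CPM in control, with Tyr and Tyrp1, the pigment enzymes, at 0 counts in all 4 and Dct at 0 in both 2KO-labelled libraries. Mitf, the melanocyte master regulator, stood at 5.27 and 9.15 CPM in the 2KO-labelled group and at 2.01 and 7.92 CPM in control, and Pmel, a melanosome protein gene whose exons overlap those of Cdk2 and Dgka, at 8.39 and 4.75 CPM in the 2KO-labelled group and at 7.65 and 4.05 CPM in control. The 6 Schwann cell and glial markers summed to 24.7 and 32.9 CPM in 2KO-labelled libraries and to 22.7 and 23.9 CPM in control. The most abundant was Ngfr, at 16.5 and 18.0 CPM in 2KO-labelled libraries and at 11.4 and 14.6 CPM in control; Sox10, which defines the crest and glial lineage, stood at 2.67 and 6.28 CPM in the 2KO-labelled group and at 7.01 and 6.57 CPM in control. None of the 2 melanocyte and 6 glial markers tested was called. Over all genes tested 7.00% were called higher and 4.92% lower, and each count of calls in this paragraph is read beside these shares. In lists this small the absence of a call does not show that levels were unchanged. The 10 mesenchymal markers summed to 387 and 356 CPM in 2KO-labelled libraries and to 312 and 381 CPM in control, led by Dcn at 187 and 121 CPM in the 2KO-labelled group and at 124 and 117 CPM in control, and of these 1, Postn, was called lower, a call lost with upper-quartile scaling, without 2KO-labelled replicate 1 and on FPKM values. Col1a1, a collagen gene, stood at 108 and 111 CPM in the 2KO-labelled group and at 63.2 and 116 CPM in control. Pdgfrb stood at 5.27 and 11.3 CPM in the 2KO-labelled group and at 2.11 and 3.17 CPM in control. Twist1 stood at 1.93 and 1.98 CPM in the 2KO-labelled group and at 0.294 and 0.293 CPM in control. Pdgfrb and Twist1 did not pass the test (edgeR adjusted p = 0.0811 and 0.118). Twist1 entered it only through its 2KO-labelled libraries, which fixed its direction in advance. Groups did not overlap for 3 of the 10 mesenchymal markers upward and 2 downward, beside 29.0% and 28.7% of all genes tested. Endothelial markers summed to 34.9 and 57.1 CPM in 2KO-labelled libraries and to 28.0 and 22.2 CPM in control, with none of 7 called. Groups did not overlap for 4 of the 7 upward and 0 downward, beside the same 29.0% and 28.7%, and the median log2 fold change was 1.21. Cldn5, among the 4, passed the filter on low counts only through its 2KO-labelled libraries, which fixed its direction in advance. Cdh5 led the list, at 12.5 and 29.7 CPM in the 2KO-labelled group and at 8.53 and 9.80 CPM in control. Neuronal markers summed to 49.5 and 49.1 CPM in 2KO-labelled libraries and to 47.1 and 56.6 CPM in control, with Elavl3 called higher and Tubb3 lower. Elavl3 stood at 6.75 and 3.46 CPM in the 2KO-labelled group and at 0.686 and 0.0587 CPM in control. It passed the filter on low counts only through its 2KO-labelled libraries, which fixed its direction in advance, so its call is a description only. The Elavl3 call was lost with limma-voom, without 2KO-labelled replicate 1 and on FPKM values, and its log2 fold change ran from 0.66 to 6.31 over the settings. Map2 was the most abundant neuronal marker, at 28.9 and 22.5 CPM in the 2KO-labelled group and at 20.1 and 31.5 CPM in control. Immune markers summed to 52.7 and 44.0 CPM in 2KO-labelled libraries and to 23.9 and 17.4 CPM in control, most of it Cd68, a lysosomal protein of macrophages that was called higher (though not on log2(FPKM + 0.1)), at 47.2 and 39.0 CPM in the 2KO-labelled group and at 21.3 and 11.9 CPM in control. Ptprc, the defining leukocyte antigen, was at most 0.587 CPM. Fewer cells of a type and less RNA per cell cannot be told apart in such bulk samples, and the part of these cells in the Tfap2b difference was not tested.

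Tfap2a lies on chromosome 13 (40715302 to 40738376, minus strand) and encodes AP-2alpha, the member best known from the surface ectoderm. It was the most abundant member in every library, at 73.4 and 93.1 FPKM in 2KO-labelled libraries and at 63.6 and 52.7 FPKM in control. Between 95.7% and 98.0% of all genes had a lower FPKM in the same library. Scaled to library size it stood at 269 and 352 CPM in 2KO-labelled libraries and at 229 and 201 CPM in control, so that the groups did not overlap. Non-overlap in this direction was found for 29.0% of all genes tested. The log2 fold change was 0.53 (standard error 0.169, 95% interval 0.16 to 0.90) and missed the threshold (edgeR adjusted p = 0.0658). It was called higher by DESeq2 (adjusted p = 0.0258) and limma-voom (0.0421), with upper-quartile scaling (0.0455), without 2KO-labelled replicate 1 (0.0198) and without control replicate 1 (0.0120). Without 2KO-labelled replicate 2 the log2 fold change was 0.31 (adjusted p = 0.467), so the call of Tfap2a turned on the method and on single libraries. Of its 4903 exonic bases, 380 (7.75%) overlap exons of the antisense gene Gm26688, which stood at 2.84 and 6.58 CPM in 2KO-labelled libraries and at 4.41 and 3.52 CPM in control; no source used here gives the strand setting, so reads of the pair cannot be told apart there.

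Tfap2c, on chromosome 2 (172549593 to 172558622, plus strand), encodes AP-2gamma, a factor of trophoblast, germ cells and epidermis. It followed Tfap2a in abundance, at 30.8 and 32.6 FPKM in 2KO-labelled libraries and at 26.2 and 23.3 FPKM in control. In CPM it stood at 76.6 and 88.9 in the 2KO-labelled libraries and at 72.7 and 67.7 in control. The groups did not overlap on either scale, and on CPM 29.0% of all genes tested did not overlap in this direction. The log2 fold change was 0.24 (standard error 0.174, 95% interval -0.15 to 0.62; edgeR adjusted p = 0.421), which leaves room for a fold between 0.904 and 1.54.

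Tfap2e, on chromosome 4 (126716006 to 126736240, minus strand), encodes AP-2epsilon. It was counted 152 and 171 times in the 2KO-labelled libraries and 175 and 115 times in control, or 8.62 and 8.46 CPM in the 2KO-labelled group and 8.58 and 6.75 CPM in control, and the groups overlapped. Per length it stood at 5.90 and 5.70 FPKM in 2KO-labelled libraries and at 5.19 and 5.21 FPKM in control, which on this scale is above Tfap2b in each library. The log2 fold change was 0.16 (standard error 0.393, 95% interval -0.71 to 1.02; edgeR adjusted p = 0.842), which leaves room for a fold between 0.612 and 2.03.

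Tfap2d, on chromosome 1 (19103022 to 19166346, plus strand), had 0 counts in all 4 libraries and was left out of the test by the filter on low counts. A count of 0 allows up to 0.170 and 0.148 CPM in 2KO-labelled libraries and up to 0.147 and 0.176 CPM in control, where 3 counts are the limit and only counting error is covered. It ends 42.6 kb before the start of Tfap2b on the same strand, and Tfap2b, at 24.9 CPM or more in the 2KO-labelled libraries, was the only gene with a count among the nearest measured genes around the pair. Defb18, Defb41 and Pkhd1, the neighbours farther out, and 4930486I03Rik, which overlaps Pkhd1, had 0 counts in all 4 libraries as well.

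Sequences just around RefSeq starts are shown for the members, since their levels span from 0 to above 90 FPKM. The starts used for Tfap2b (19212054) and Tfap2a (40734920) lie inside the gene spans given above. Their windows thus do not cover the outermost starts of those spans. RefSeq windows (GRCm38.p6) of 250 bases before to 50 after a start were found for 4 of the 5 genes, Tfap2a, Tfap2b, Tfap2d and Tfap2e, and those of Tfap2a and Tfap2d with more than 1 start are given for the most upstream one. CG dinucleotides are in capitals and each sequence runs 5′ to 3′ on the gene's strand.
Tfap2b, chr1:19211804-19212103, plus strand: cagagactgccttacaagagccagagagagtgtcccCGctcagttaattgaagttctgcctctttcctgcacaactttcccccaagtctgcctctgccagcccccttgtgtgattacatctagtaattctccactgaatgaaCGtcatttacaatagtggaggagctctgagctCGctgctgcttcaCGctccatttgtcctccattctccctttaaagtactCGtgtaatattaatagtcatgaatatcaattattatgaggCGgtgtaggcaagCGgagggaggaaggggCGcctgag
Tfap2d, chr1:19102772-19103071, plus strand: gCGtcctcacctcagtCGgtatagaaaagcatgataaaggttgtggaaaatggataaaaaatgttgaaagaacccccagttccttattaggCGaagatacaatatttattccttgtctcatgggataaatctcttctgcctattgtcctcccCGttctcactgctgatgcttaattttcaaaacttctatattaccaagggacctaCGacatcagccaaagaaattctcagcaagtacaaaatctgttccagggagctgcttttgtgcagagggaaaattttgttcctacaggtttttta
Tfap2a, chr13:40734871-40735170, minus strand: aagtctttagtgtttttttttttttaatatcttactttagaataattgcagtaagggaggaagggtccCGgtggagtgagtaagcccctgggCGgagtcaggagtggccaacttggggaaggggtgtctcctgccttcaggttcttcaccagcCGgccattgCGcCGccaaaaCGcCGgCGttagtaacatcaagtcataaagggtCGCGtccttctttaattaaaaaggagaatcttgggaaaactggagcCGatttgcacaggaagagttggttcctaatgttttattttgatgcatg
Tfap2e, chr4:126736220-126736519, minus strand: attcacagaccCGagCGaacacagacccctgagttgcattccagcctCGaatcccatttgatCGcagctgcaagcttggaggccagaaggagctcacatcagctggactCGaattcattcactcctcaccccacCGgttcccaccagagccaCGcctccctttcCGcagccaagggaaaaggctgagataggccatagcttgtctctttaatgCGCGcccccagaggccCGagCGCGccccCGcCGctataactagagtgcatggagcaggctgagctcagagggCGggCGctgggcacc

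The Tfap2d window held 5 CG dinucleotides and the Tfap2b window 8, while the Tfap2a window shown held 11 and the Tfap2e window 17. Over all 32851 windows of the same length the median was 7, with quartiles of 3 and 20. The other Tfap2a window held 15, and the Tfap2d window farthest downstream held 10. The binding motif of AP-2 itself, GCCNNNGGC, which reads the same on both strands, was in none of these windows, nor in the other windows of the 4 genes, and 16.6% of all windows held it. No match says only that these letters are absent from the window.

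On deposited FPKM the order of the members was the same in all 4 libraries: Tfap2a, Tfap2c, Tfap2e, Tfap2b and Tfap2d. The places of Tfap2e and Tfap2b depended on the length scale: on CPM per kilobase of annotated exon, Tfap2b stood at 5.15 and 3.93 in the 2KO-labelled group and at 0.224 and 1.37 in control, and Tfap2e at 4.13 and 4.06 in the 2KO-labelled group and at 4.11 and 3.24 in control, so that Tfap2b was the higher of the pair in 2KO-labelled replicate 1. The other members kept their places on that scale. Tfap2e and Tfap2b were close in the 2KO-labelled libraries, where the FPKM of Tfap2b was 0.893 and 0.829 times that of Tfap2e, against 0.0389 and 0.229 times in control. The family summed to 115 and 136 FPKM in 2KO-labelled libraries and to 95.2 and 82.4 FPKM in control. The group means were 126 ± 14.7 FPKM and 88.8 ± 9.07 FPKM (SD, n = 2 each). The groups did not overlap, and the exact two-sided permutation test gave p = 0.333, the smallest that 2 libraries against 2 can give. Tfap2a made up 63.6% and 68.4% of the sum in the 2KO-labelled libraries and 66.8% and 64.0% in control. Tfap2c made up 26.7% and 23.9% in the 2KO-labelled libraries and 27.5% and 28.2% in control. The share of Tfap2b was 4.57% and 3.47% in the 2KO-labelled libraries and 0.212% and 1.45% in control. Most of the summed FPKM in both groups was thus Tfap2a and Tfap2c, and the share of Tfap2b was small also where it was highest, at 4.57% on FPKM and 6.07% on CPM per kilobase of exon, both in 2KO-labelled replicate 1.

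**Figure D3:**
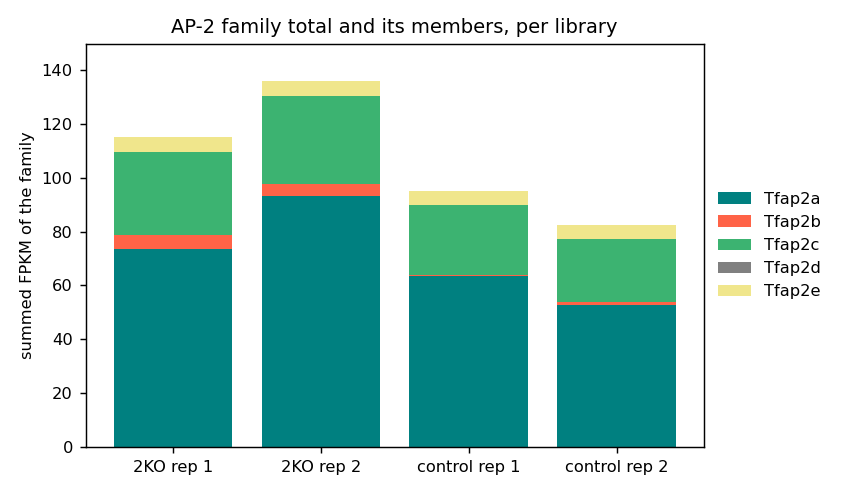
Summed FPKM of the AP-2 family in each library (bar height, linear axis from 0), split into its members by colour, with the 2KO-labelled libraries first. The bars reach 115 and 136 FPKM in 2KO-labelled libraries and 95.2 and 82.4 FPKM in control, and Tfap2a with Tfap2c fill most of each.

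Settings of the analysis moved the calls of Tfap2a and Tfap2b but reversed the sign of no tested member. Over 15 other settings the log2 fold change ran from 1.75 to 4.34 for Tfap2b, with 12 calls, and from 0.31 to 0.71 for Tfap2a, with 6 calls. It ran from 0.12 to 0.36 for Tfap2c and from 0.0004 to 0.36 for Tfap2e, with 0 calls for each. The values on the FPKM scale are of log2(FPKM + pseudocount), and that of a low gene such as Tfap2b moves with the pseudocount: it was 1.88 with 1 and 3.03 with 0.1.

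**Figure D4:**
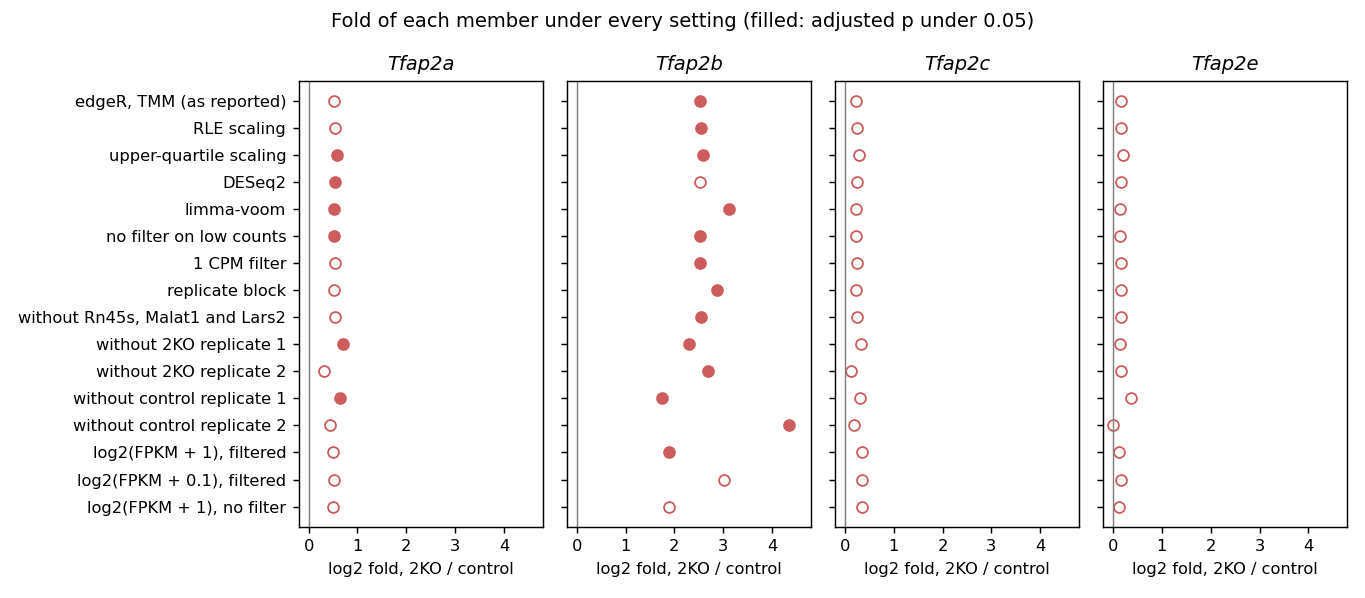
Log2 fold change of 2KO over control (x axis) of the 4 tested members under each setting (y axis); filled points have an adjusted p under 0.05. Tfap2b spreads from 1.75 to 4.34, with its extremes where a control library is left out, and Tfap2c and Tfap2e have no filled point.

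The genes whose levels over the 4 libraries were most like each member's were found by the Euclidean distance of log2 CPM among 19210 other genes with a count. Tfap2b was nearest to St8sia2, which encodes a sialyltransferase that builds polysialic acid, at a distance of 0.848. St8sia2 stood at 19.9 and 27.6 CPM in 2KO-labelled libraries and at 1.86 and 7.33 CPM in control. Gpr153, an orphan receptor gene, stood at 22.3 and 18.3 CPM in 2KO-labelled libraries and at 1.32 and 4.87 CPM in control, and Pde8a, a cAMP phosphodiesterase gene, at 24.2 and 30.4 CPM in the 2KO-labelled group and at 2.45 and 5.16 CPM in control. The likeness to Tfap2b chose these 3 genes, so their difference between groups and between control libraries is a description only. Nearest to Tfap2a were Bag6, Cd81 and Clstn1, at distances of 0.215 to 0.267. Nearest to Tfap2c were Tfdp2, Stk35 and Tsc2, at 0.0895 to 0.133, and nearest to Tfap2e were Rab11fip4, B3gat3 and Rassf5, at 0.133 to 0.164. Distances shrink where many genes share a level, so they describe these libraries and are not comparable between members.

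Around the members, the 2 nearest measured genes on each side gave 16 genes other than members, of which 10 were tested, 2 were called higher and 0 lower, beside 7.00% and 4.92% of all genes tested. The first of them was Bmp7, a signalling ligand gene 309 kb beyond Tfap2c (chromosome 2, 172868012 to 172940321). Bmp7 stood at 121 and 154 CPM in 2KO-labelled libraries and at 49.1 and 52.2 CPM in control, a log2 fold change of 1.44 (standard error 0.182; edgeR adjusted p = 0.000681), against 0.24 for Tfap2c. Gcnt2, a glycosyltransferase gene 121 kb from Tfap2a (chromosome 13, 40859754 to 40960892), stood at 76.4 and 75.5 CPM in 2KO-labelled libraries and at 51.7 and 46.1 CPM in control (log2 fold change 0.64, edgeR adjusted p = 0.0418), a call that was lost without either 2KO-labelled library, without control replicate 2 and on FPKM values. Psmb2, a proteasome subunit gene 6.29 kb from Tfap2e, stood at 101 and 100.1 CPM in 2KO-labelled libraries and at 111 and 113 CPM in control. Ncdn, 7.51 kb from Tfap2e on its other side, stood at 55.5 and 57.7 CPM in 2KO-labelled libraries and at 39.9 and 45.5 CPM in control. Neither passed the test (adjusted p = 0.559 and 0.191).

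Among co-regulators of AP-2 proteins, the coactivator genes Cited2, Ep300 and Crebbp rose. Of 9 listed and tested, these 3 were called higher and 0 lower, beside 7.00% and 4.92% of all genes tested, and the median log2 fold change was 0.20 against 0.0065 over all genes tested. Cited2, a coactivator that recruits the acetyltransferases p300 and CBP to AP-2, stood at 98.1 CPM in both 2KO-labelled libraries and at 68.0 and 48.3 CPM in control (log2 fold change 0.75, edgeR adjusted p = 0.0319). Ep300, which encodes p300, stood at 413 and 393 CPM in 2KO-labelled libraries and at 293 and 265 CPM in control (0.53, adjusted p = 0.0356). Crebbp, which encodes CBP, stood at 665 and 660 CPM in 2KO-labelled libraries and at 447 and 468 CPM in control (0.53, adjusted p = 0.0269). All 3 lost their calls without either 2KO-labelled library and on FPKM values, and Cited2 and Ep300 also without control replicate 2. Kctd1 and Kctd15, which encode BTB-domain proteins that repress AP-2alpha, had log2 fold changes of -0.36 and -0.21 and did not pass.

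Each list below is read against 7.00% of all genes tested called higher and 4.92% called lower. Of 13 transcription factors that work beside AP-2 in stratified epithelium, 2 were called higher and 2 lower, and the median log2 fold change was -0.03. Trp63, which encodes the p63 factor of basal keratinocytes, stood at 837 and 1029 CPM in 2KO-labelled libraries and at 905 and 960 CPM in control. Gata3, a factor of skin and hair follicle whose exons overlap those of 9230102O04Rik, rose to 12.6 and 17.2 CPM in 2KO-labelled libraries, against 1.13 and 0.880 CPM in control (edgeR adjusted p = 0.000549). Klf5, a factor of proliferating epithelium, rose to 740 and 657 CPM in 2KO-labelled libraries, against 455 and 360 CPM in control (adjusted p = 0.00988), though not on FPKM values. The grainyhead-like factors Grhl1 and Grhl3, which act in epidermal barrier formation, fell by 0.94 and 0.58 on the log2 scale (adjusted p = 0.0215 and 0.0344). Both lost their calls without 2KO-labelled replicate 2, Grhl1 also on FPKM values, and Grhl3 also without 2KO-labelled replicate 1 or control replicate 1. Grhl2, the third member of that family, was at -0.16 and did not pass.

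Among 12 tested of 13 epithelial genes reported as AP-2 targets, 1 was called higher and 2 lower, with a median log2 fold change of -0.24. The basal keratin genes Krt14 and Krt5 fell by 0.72 and 0.45 on the log2 scale (edgeR adjusted p = 0.0248 and 0.0392), and both calls were lost without control replicate 1 and on FPKM values, and that of Krt5 also with upper-quartile scaling. Igfbp5, which encodes a binding protein for insulin-like growth factors, rose to 2473 and 3706 CPM in 2KO-labelled libraries, against 429 and 857 CPM in control (adjusted p = 0.000674). Egfr and Erbb2, growth factor receptor genes (exons of Erbb2 overlap those of Mien1), had log2 fold changes of 0.32 and -0.01 and did not pass. Targets that AP-2 factors are known to activate and ones they repress stand together in this list, so its median has no direction to be read.

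The neural crest list, whose genes work with or downstream of Tfap2a and Tfap2b in crest cells, had 4 of 15 tested genes called higher and 1 lower, with a median log2 fold change of 1.27. The median over all genes tested was 0.0065. Zic1, Foxd3, Twist1 and Msx1 passed the filter on low counts only through their 2KO-labelled libraries, which fixed their direction in advance. The list counts and median are thus a description only. Pax3, a factor of crest and muscle precursors, rose to 14.2 and 17.0 CPM in 2KO-labelled libraries, against 0.637 and 0.528 CPM in control (edgeR adjusted p = 0.000213). Zic1, whose exons overlap those of Zic4, had 28.7 and 38.4 CPM in 2KO-labelled libraries and 0 counts in control, at least 419-fold higher when control is set to 3 counts over its 2 libraries (0.0801 CPM). Msx2, a homeobox factor, rose to 17.7 and 20.98 CPM in 2KO-labelled libraries, against 3.82 and 2.35 CPM in control, and Sox9, a factor of crest and of epithelial progenitors, to 242 and 311 CPM in the 2KO-labelled group, against 150.4 and 103 CPM in control. Kit, a receptor of the crest-derived melanocyte lineage, fell to 126 and 103 CPM in 2KO-labelled libraries, against 207 and 189 CPM in control (adjusted p = 0.0118), and this call ended without 2KO-labelled replicate 2 and on FPKM values. Foxd3, an early crest factor, stood at 3.18 and 3.56 CPM in 2KO-labelled libraries and at 0.392 and 0.469 CPM in control and just missed the threshold (adjusted p = 0.0528), while Sox10 had a log2 fold change of -0.60 and did not pass.

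**Figure D5:**
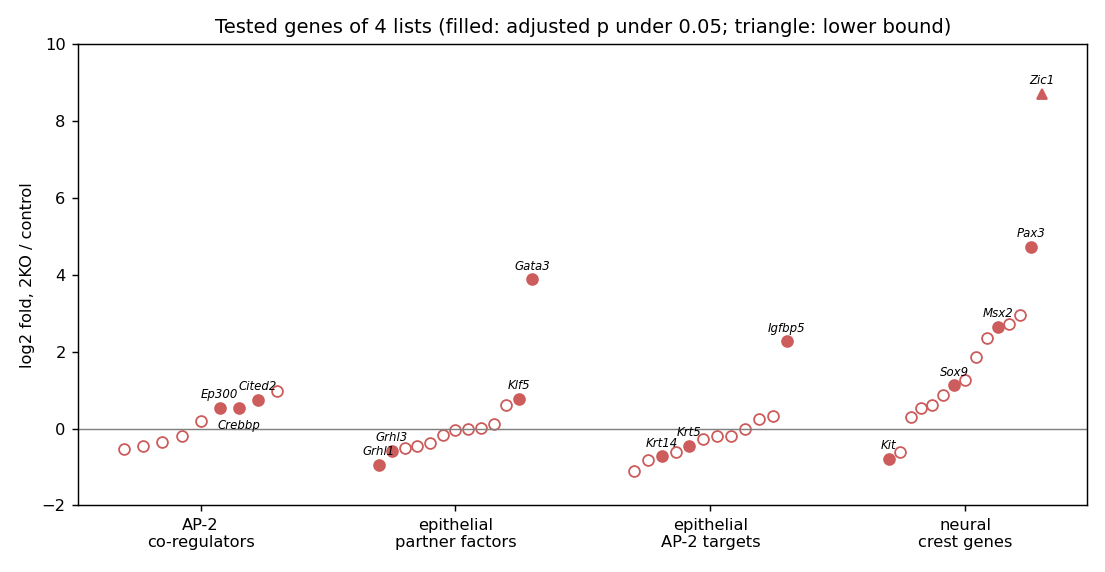
Log2 fold change of 2KO over control (y axis) for the tested genes of 4 lists (x axis), ordered by size within each list. Filled points have an adjusted p under 0.05 and are named; the triangle is Zic1, drawn at its lower bound of 8.71. Of the neural crest genes 13 of 15 lie above 0, while the epithelial partners and targets lie on both sides of 0. Zic1, Foxd3, Twist1 and Msx1 passed the filter on low counts only through their 2KO-labelled libraries, which fixed their side in advance.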

How the data were processed

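RNA was measured in 4 libraries, 2 for each genotype, grouped by their titles. The authors deposited whole-number read counts per gene and library, and a table of FPKM values. The submitters' processing notes name HTSeq 0.6.1, Cufflinks 2.2.1, TopHat2 2.0.13 and DESeq2 1.6.3 and build mm10. Which of them made which file is not given in the sources used here, nor are gene annotation and strand setting. Per the labels' protocols RNA was amplified before sequencing, so reads are not independent molecules and counting intervals cover counting error only.

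The main comparison ran on counts in edgeR 4.0.16 under R 4.3.3 (TMM scaling, filterByExpr, quasi-likelihood test, two-sided, Benjamini-Hochberg adjustment over 15336 genes). Standard errors are the log2 fold change divided by the square root of F, and 95% intervals use the moderated degrees of freedom. CPM use TMM-scaled library sizes. DESeq2 1.42.0 and limma 3.58.1 (voom on counts, trend on log2 FPKM with pseudocounts of 1 and 0.1, with and without a filter of a mean of 0.5 FPKM in a group) were alternatives, beside other scalings and filters and each library left out. The edgeR and limma trend steps were also run on simulated counts as a check of the code. Every simulated gene had the same spread between replicates, so that run does not bear on the calls of single genes here. Replicates differed beyond sampling noise (chi-square over degrees of freedom: 22.7 for 2KO, 28.7 for control). Positions, and exon overlaps between genes in the files, are from GENCODE M21, to which 23753 of 24453 symbols were matched.

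The members and lists were chosen with earlier results of these data known. Named are the members, their 2 nearest measured genes on each side, called list genes (or the 2 most abundant), the targeted genes, the 3 genes most like each member by log2 CPM (prior count 2) and the most abundant gene of each marker list; other list genes were added after their values were seen.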

Additional observations from a re-analysis of the deposited data

How the results depend on the processing

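The log2 fold change of every tested AP-2 gene kept a positive sign under all 15 alternatives, which draw on the same 4 libraries. That of Tfap2e came down to 0.0004, which gives no direction. Tfap2a, not called as reported, was called with upper-quartile scaling (log2 fold change 0.58), DESeq2 (0.54), limma-voom (0.52) and no filter on low counts (0.52). With each replicate left out in turn it ran from 0.31 to 0.71. Tfap2b lost its call with DESeq2 (2.52, adjusted p = 0.118), on log2(FPKM + 0.1) (3.03, adjusted p = 0.0713) and on unfiltered log2(FPKM + 1) (1.88, adjusted p = 0.277); its other adjusted p-values ran down to 9.89e-12, with no filter on low counts. The cause was not tested.

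Over all genes, 1073 were called higher and 754 lower. On filtered FPKM these were 474 and 172 with a pseudocount of 1 and 413 and 158 with 0.1; on unfiltered FPKM they were 0 and 0, with 3519 at an unadjusted p under 0.05 by limma. With no filter on low counts 1242 were lower. Leaving out each replicate gave 839 to 1643 higher; such fits take the lone library to vary like the other group.

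List counts were small and moved easily. Targets called lower, 2 as reported, were 1 with upper-quartile scaling and 4 with DESeq2 or no count filter. On filtered FPKM, with either pseudocount, 0 co-regulators, 1 partner factor in each direction, 0 targets lower and 0 crest genes lower were called, and on unfiltered FPKM 0 in every list. With each replicate left out, co-regulators called higher ran from 0 to 4, partner factors from 2 to 4 higher and 0 to 5 lower, targets from 1 to 2 higher and 0 to 5 lower, and crest genes called lower from 0 to 1.

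The summed FPKM of the family in the 2KO-labelled group was 1.42 times that of control, and 1.40 times on CPM per kilobase of exon. With the replicate number as a block the log2 fold change was 2.88 for Tfap2b and 0.52 for Tfap2a, and no call of a member changed; nothing in the labels pairs the libraries by number (correlation of replicate differences across genes -0.023). At this depth Tfap2d was not detectable.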
